A study of Homo sapiens with 10 samples.

Results

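Antisense long non-coding RNAs are transcribed from the strand opposite to another gene, and 208 of the 58735 genes in the deposited tables formed the group described here. They were chosen by measured values: a gene had to be typed as antisense in the tables and to average at least 30 raw counts over the 10 libraries. Of 5583 antisense genes, 213 reached that level and 2262 had no count in any library. SNHG7, SNHG10, SNHG12, ZFAS1 and KCNQ1OT1 were left out by name, and 0 genes were left out for lying near the overexpressed locus on chromosome 14, from 33 to 41 Mb. Genes close to the minimum were AL035587.1, AP002387.1 and ENTPD3-AS1 just inside (mean counts 30, 30.1 and 30.2) and AL354836.1, AC067750.1 and AC009005.1 just outside (mean counts 29.9, 29.7 and 29.6). The 208 members held 61.4% of all counts given to antisense genes.

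RNA was sequenced from the human cell line TPC-1, derived from a papillary thyroid carcinoma, after transfection with a vector for overexpression of PTCSC3-AS1 (OE, n = 5) or with an empty vector (EV, n = 5). PTCSC3-AS1 is a long non-coding RNA at a thyroid cancer susceptibility locus. Replicates 4 and 5 of each group stand in one deposited table, called the second set, and replicates 1 to 3 in another, called the first set. All libraries thus come from a single cell line carrying a vector, and whether the cells were a pool or a clone, whether replicates were separate cultures, and what separates the sets were not stated in any label. If replicates were technical, the p-values measure technical spread.

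An antisense RNA can share its promoter region, its exons or only an intron with the protein-coding gene on the other strand. Known members of this class act in several ways: some recruit chromatin proteins to their own locus, some pair with or mask the opposite transcript, some bind microRNAs or proteins in the cytoplasm, and many have no known role. In thyroid cancer, as in other tumours, individual antisense RNAs have been studied as markers and as regulators of growth and invasion.

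The depth was 15761474 to 18066559 counts per library, and 3 counts, the limit that a count of 0 allows, equalled 0.166 to 0.190 CPM (counts scaled to library size) by library, for counting error only. No row of the tables bore the name PTCSC3-AS1, and its neighbour PTCSC3 had 0 counts in every library, so the labels were not checked by the overexpressed gene. The thyroid markers PAX8 (357 to 477 CPM), FOXE1 (13.8 to 30.5) and HHEX (12.3 to 17.6) were present, while TG averaged 0.588 CPM and NKX2-1, TSHR and SLC5A5 had 0 counts. Of the epithelial markers, KRT8 and KRT18 averaged 110 and 269 CPM, while KRT19, EPCAM and CDH1 averaged 0.0999, 0.141 and 0.0234 CPM, near or below the limit of a count of 0. The fibroblast marker COL1A1 averaged 3.27 CPM, and the 9 other markers of fibroblasts, leukocytes, endothelium and C cells stayed under 1 CPM on average. EV replicate 2 stood apart: its counts differed from those of the other EV libraries by a chi-square per degree of freedom of 41.8 to 58.0, against 4.47 to 32.6 among the other EV pairs. Counts of called members and pairs that this library moved are given with and without it.

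Where a promoter sequence helps to show what kind of gene is meant, RefSeq windows of build GRCh38.p14, from 250 bases before to 50 after the gene's start, were matched by symbol, chromosome and strand for 79 of the 208 members. The windows below, written in the direction of transcription, belong to the member with the highest count (FGD5-AS1, chr3:14948392-14948691, minus strand), the one with the lowest p between OE and EV (DLEU2, chr13:50125492-50125791, minus strand), and 2 that differed between the sets in opposite directions (NRAV, chr12:120495897-120496196, minus strand, and TMPO-AS1, chr12:98516177-98516476, minus strand). Capitals mark the GC box GGGCGG, the CCAAT box and the TATA box TATAAA on either strand.
FGD5-AS1: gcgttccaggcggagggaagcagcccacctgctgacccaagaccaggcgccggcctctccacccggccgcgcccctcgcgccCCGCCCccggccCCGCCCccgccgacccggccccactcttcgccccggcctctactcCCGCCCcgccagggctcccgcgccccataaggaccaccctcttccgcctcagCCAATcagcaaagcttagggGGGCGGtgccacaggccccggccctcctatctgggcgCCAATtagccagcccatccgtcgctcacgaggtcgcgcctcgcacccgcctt
DLEU2: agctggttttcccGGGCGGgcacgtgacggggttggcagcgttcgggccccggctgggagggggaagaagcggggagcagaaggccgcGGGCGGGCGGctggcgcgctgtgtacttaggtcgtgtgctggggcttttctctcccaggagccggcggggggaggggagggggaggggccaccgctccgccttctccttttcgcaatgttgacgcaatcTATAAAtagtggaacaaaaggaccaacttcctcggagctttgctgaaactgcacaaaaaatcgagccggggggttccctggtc
NRAV: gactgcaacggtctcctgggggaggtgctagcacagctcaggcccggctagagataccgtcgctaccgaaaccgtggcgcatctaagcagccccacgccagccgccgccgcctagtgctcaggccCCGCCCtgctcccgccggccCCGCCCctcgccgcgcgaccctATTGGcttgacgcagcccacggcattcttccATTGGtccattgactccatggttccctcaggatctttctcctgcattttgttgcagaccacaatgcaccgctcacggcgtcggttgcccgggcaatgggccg
TMPO-AS1: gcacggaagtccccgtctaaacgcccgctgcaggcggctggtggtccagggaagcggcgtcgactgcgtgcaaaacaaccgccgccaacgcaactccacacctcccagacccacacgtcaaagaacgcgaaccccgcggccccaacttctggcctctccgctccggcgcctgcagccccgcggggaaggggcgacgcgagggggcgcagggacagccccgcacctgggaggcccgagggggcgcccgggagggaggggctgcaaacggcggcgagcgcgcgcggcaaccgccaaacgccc
The FGD5-AS1 window held 4 GC boxes and 2 CCAAT boxes. The NRAV window held 2 of each. The DLEU2 window held 3 GC boxes, of which the last 2 overlap, and 1 TATA box. TMPO-AS1 matched none of these letters and had 39 CG dinucleotides. The RefSeq start lay 17 bases from the start in the tables for FGD5-AS1, 6 for NRAV, 179 for DLEU2 and 196 for TMPO-AS1.

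Over the 79 matched windows the median number of CG dinucleotides was 22, against 14 over all 35116 windows of the RefSeq table, and the median GC content was 63.7% against 58.7%. GGGCGG was found in 46 of the 79 windows (58.2%), against 45.0% of all windows. CCAAT was found in 29 (36.7%), against 34.6% of all. The ETS letters CCGGAAG were in 9 (11.4%, against 10.3%), TATAAA in 6 (7.59%, against 11.5%) and the CRE letters TGACGTCA in 1 (1.27%, against 1.85%). Both strands were searched, and these matches are descriptions of letters, not binding sites.

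Of the 208 members, 178 overlapped a protein-coding gene on the other strand by gene span, and 30 overlapped none. The partner was the protein-coding gene with the longest overlap. In 67 pairs the genes ran head to head, so that their 5′ ends overlapped, with a median of 675 bases between the starts. In 49 pairs they ran tail to tail, in 43 the antisense gene lay inside its partner, and in 19 the partner lay inside the antisense gene. Among all 5583 antisense genes the head to head arrangement made up 15.6%, against 32.2% of the members, and genes inside their partner 54.5%, against 20.7%. A protein-coding start on the opposite strand lay within 1000 bases of the start of 104 members, or 50% of them, against 20.4% of all antisense genes. The rule on counts chose the members, so these shares describe them and were not tested.

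How much of a member can be counted apart from its neighbours bears on each value that follows. A median of 8.07% of a member's exon bases lay in exons of another gene, 52 members shared no exon base, and 6 shared more than 50%. Among all antisense genes, the 303 whose every exon base lay in exons of their partner had 0 counts in every library, while 1341 of the 2374 with no shared exon base (56.5%) had a count. The libraries were made with the NEBNext Ultra kit, and no source used here states the strand setting of the counting. Without strand, reads of a member and of unspliced RNA from its partner's introns cannot be told apart. The strand setting was not tested, and levels per kb below divide by the full gene length, shared exon bases included. Copies elsewhere in the transcriptome also make some values uncertain: 54.5% of the 31-base words of NUTM2A-AS1 are found in NUTM2B-AS1, 45.5% of those of AC004889.1 in OR2A1-AS1, 33.4% of those of ASH1L-AS1 in DAP3, 25.4% of those of NUTM2B-AS1 in NUTM2A-AS1 and 23.8% of those of AC074117.1 in C15orf40.

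Most members were scarce, and a few carried much of the class. The median member averaged 3.34 CPM (quartiles 2.43 and 5.98) over the 10 libraries, and the 12 members with the highest CPM held 32.9% of the CPM of all 208. FGD5-AS1 alone held 10.8%. It is an antisense RNA on chromosome 3 (14920347 to 14948424, hg38, minus strand) with published roles in tumour cells.

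FGD5-AS1 had 133, 138, 128, 131 and 147 CPM in OE replicates 1 to 5, against 137, 121, 148, 143 and 151 CPM in EV replicates 1 to 5. Its groups overlapped, with the lowest and the highest library both EV. OTUD6B-AS1 on chromosome 8 had 33.6, 40.1, 33.8, 34.5 and 31.7 CPM in OE replicates 1 to 5, against 47.9, 56.7, 48.4, 36.0 and 24.3 CPM in EV replicates 1 to 5. All 3 EV libraries of the first set lay above every OE library, and EV replicate 5 lay below all of them. HCG18, a transcript of the major histocompatibility complex region, averaged 33.3 ± 4.52 CPM in OE and 37.5 ± 2.84 CPM in EV (SD, n = 5 each). PSMA3-AS1, which runs tail to tail with the proteasome subunit gene PSMA3, averaged 22.5 ± 2.08 CPM in OE and 23.2 ± 3.88 CPM in EV, and AC020916.1 averaged 18.3 ± 2.07 CPM in OE and 19.8 ± 4.30 CPM in EV. NUTM2A-AS1 averaged 35.2 ± 3.89 CPM in OE and 36.1 ± 4.51 CPM in EV, and NUTM2B-AS1 22.3 ± 3.67 CPM in OE and 23.5 ± 3.59 CPM in EV. Because part of their sequence is shared, as given above, their separate values are uncertain.

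Per length of exon, the order of the members was different. The highest mean level was that of AC099850.3 at 54.2 ± 9.15 CPM per kb (SD over the 10 libraries), a 321-base gene inside PRR11. FGD5-AS1 followed at 26.8 ± 1.87 CPM per kb, and KCCAT198, a 549-base gene inside C12orf75, at 23.9 ± 4.37 CPM per kb. The difference between FGD5-AS1 and KCCAT198 was within the spread of KCCAT198. AC005288.1 (18.2 ± 1.90 CPM per kb), AC083855.2 (16.5 ± 2.24) and TM4SF19-AS1 (13.5 ± 2.61) came next, and of these neighbours AC005288.1 and AC083855.2 lay within their spread of each other. AC005288.1 and AC083855.2 were named after their values were seen.

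Members were usually below the gene on the other strand. Their median level was 1.55 CPM per kb, against 5.77 CPM per kb for the 175 different partners and 5.92 CPM per kb for all 12411 protein-coding genes tested. Of the 174 pairs whose partner had a count, 124 members were below their partner per kb and 50 above, with a median log2 ratio of levels of -1.86. The partner of the other 4 pairs had 0 counts. Members inside their partner had a median log2 ratio of -1.08, head to head members -2.13 and tail to tail members -1.97. Where the partner lay inside the antisense gene the median was 1.88.

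The pairs at the ends of this range paired an antisense RNA with a very abundant or a nearly silent gene. VIM-AS1, head to head with the intermediate filament gene VIM, averaged 1.43 CPM per kb, against 256.2 CPM per kb for VIM, a log2 ratio of -7.49. The log2 ratio was -6.70 for AL162586.1 against the TGF-beta co-receptor gene ENG. It was -6.18 for ELF3-AS1 against the aminopeptidase gene RNPEP, and -5.96 for AP003352.1 against the ribosomal protein gene RPL30. At the other end, FGD5 was counted in 1 of 10 libraries (0.226 CPM in EV replicate 1) beside FGD5-AS1 at 121 to 151 CPM. VAX2 beside ATP6V1B1-AS1 and GAPDHS beside TMEM147-AS1 were likewise counted in 1 library each, VAX2 at 0.0568 CPM in OE replicate 1 and GAPDHS at 0.0592 CPM in OE replicate 4. DLGAP1, the partner of both DLGAP1-AS1 and DLGAP1-AS2, had 0 to 0.192 CPM. No ratio is given against genes this close to 0.

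**Figure D1:**
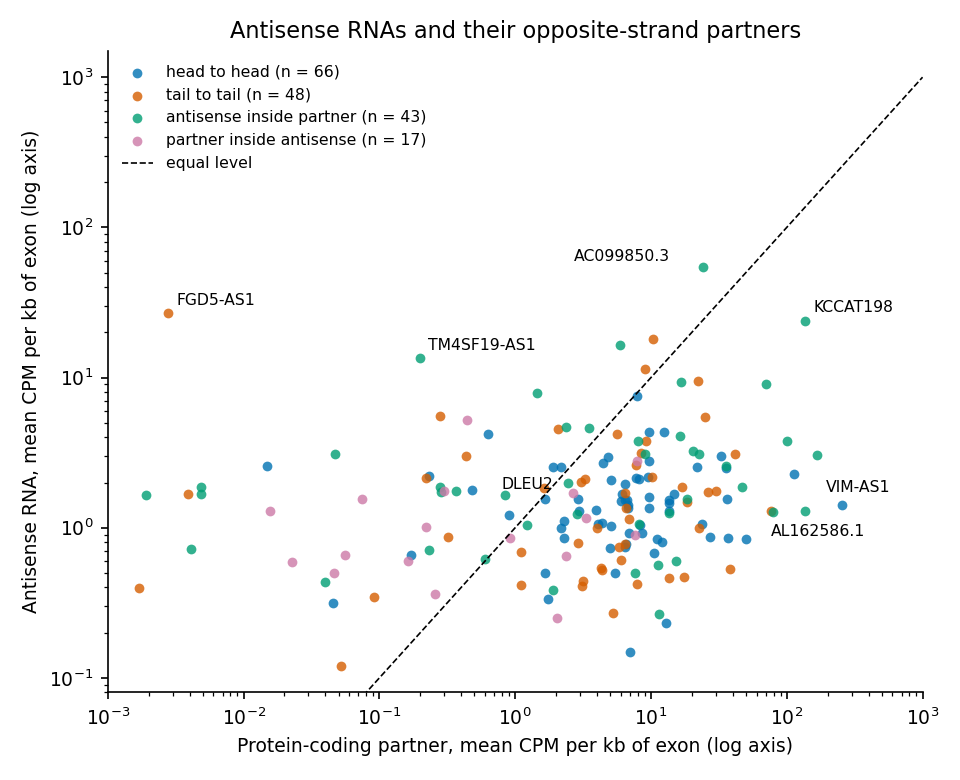
Mean level of each antisense RNA (vertical log axis, CPM per kb of exon) against that of its protein-coding partner (horizontal log axis), for the 174 pairs whose partner had a count; colours give the arrangement and the dashed line equal levels. Of these members, 124 lie below the line, and FGD5-AS1 lies far above it beside a partner counted in 1 library.

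Across the 152 pairs in which both genes passed the filter on low counts, the ranks of the mean levels of member and partner had a Spearman rho of 0.23. By arrangement, among these 152 pairs, rho was 0.04 for 62 head to head pairs and 0.21 for 42 tail to tail pairs. It was 0.36 for 37 members inside their partner and 0.40 for 11 members around their partner. These values describe pairs measured in the same libraries, and genes are not replicates.

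Several published antisense RNAs of the HOX clusters had no counts in TPC-1. HOXA-AS2 was the HOX cluster member among the 208, with 3.75, 2.05, 4.26, 3.61 and 2.26 CPM in OE replicates 1 to 5, against 3.34, 3.91, 2.44, 3.75 and 3.25 CPM in EV replicates 1 to 5. Its groups overlapped fully (log2 change -0.07, SE 0.23). HOTAIR, HOTTIP, HOXA11-AS, HOXC-AS1 and HAGLR had 0 counts in every library, which allows up to 0.166 to 0.190 CPM, and HOTAIRM1 averaged 0.6 counts. HOXA3, the homeobox partner of HOXA-AS2, averaged 2.58 CPM.

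The first question of the design was whether PTCSC3-AS1 overexpression changed these RNAs. None of them was called by the quasi-likelihood test of edgeR with Benjamini-Hochberg adjustment. Over both sets, 0 of 208 members were called at an adjusted p under 0.05, against 0 of all 14881 genes tested (0%). DESeq2 and limma-voom also called 0 members. At an unadjusted p under 0.05 there were 8 members, 4 higher and 4 lower in OE, which is 3.85% of the members, against 5.67% of all genes tested. The median log2 change, OE over EV, was -0.04 over the members and -0.01 over all genes tested. There were 87 members above 0 and 121 below, so 58.2% were below 0, against 52.2% of all genes tested.

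How large a change could have been missed differed by member. The median standard error of the log2 change was 0.21 over the members, against 0.12 over all genes tested. For 93.3% of the members the 95% interval stayed inside a 2-fold change in either direction, against 87.0% of all genes tested. For FGD5-AS1 it ran from -0.20 to 0.10 on the log2 scale. One member, AL606489.1, had an estimate beyond 2-fold. With a library left out in turn, its log2 change ran from 0.86 (without EV replicate 2) to 1.32 (without EV replicate 5). Several of these fits, not only that without EV replicate 2, lay inside 2-fold.

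**Figure D2:**
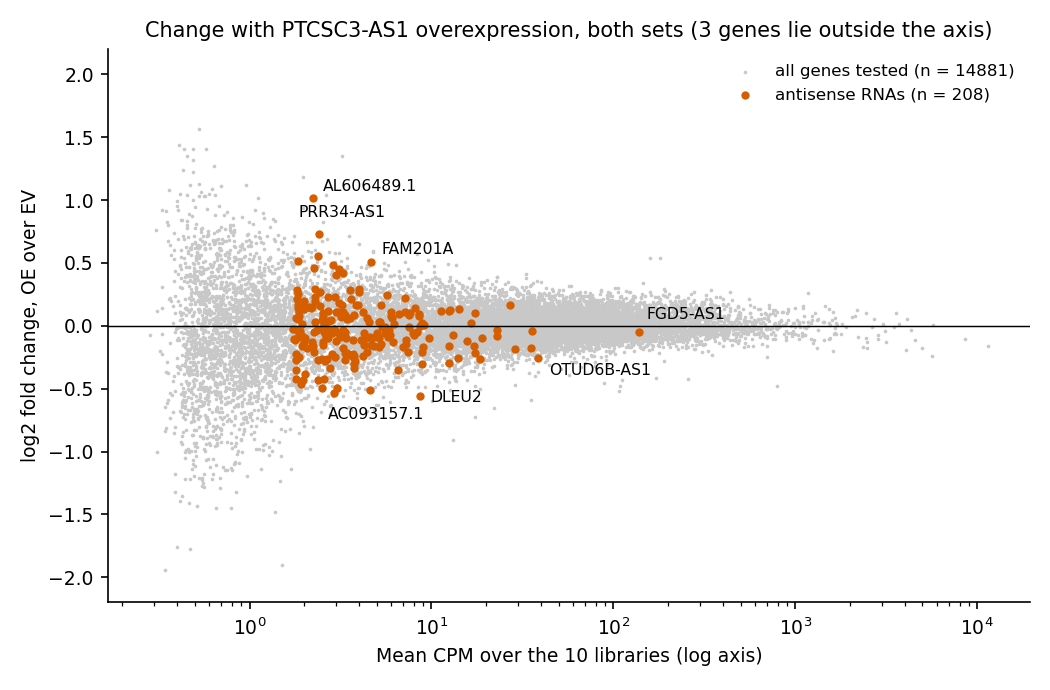
Log2 fold change, OE over EV (vertical axis), against mean CPM over the 10 libraries (horizontal log axis) for the 208 antisense RNAs and all 14881 genes tested. The antisense RNAs scatter around 0 within the cloud of all genes, from -0.56 for DLEU2 to 1.02 for AL606489.1, and none was called.

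The lowest unadjusted p was that of DLEU2, the RNA at chr13:49982552-50125720 (minus strand) that hosts miR-15a and miR-16-1 and is often deleted in chronic lymphocytic leukaemia. DLEU2 had 5.17, 6.21, 6.19, 9.47 and 8.30 CPM in OE replicates 1 to 5, against 7.75, 11.1, 10.5, 10.3 and 11.6 CPM in EV replicates 1 to 5. Within each set every OE library lay below every EV library, but OE replicates 4 and 5 lay above EV replicate 1. The log2 change was -0.56 (SE 0.14, 95% interval -0.86 to -0.25), with an unadjusted p of 0.00144 and an adjusted p of 0.853 by edgeR. DLEU2 shares 10.5% of its 31-base words with DLEU2L, and 16.9% in all with genes that do not overlap it. Its partner TRIM13, a ubiquitin ligase gene inside the DLEU2 locus, had 21.1, 21.5, 17.6, 23.7 and 22.2 CPM in OE replicates 1 to 5, against 20.8, 22.1, 16.4, 25.2 and 23.7 CPM in EV replicates 1 to 5. The TRIM13 groups overlapped throughout (log2 change -0.02).

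AC093157.1 starts 210 bases from the start of DPH5, a gene of diphthamide synthesis, on the other strand of chromosome 1 (101025878 to 101087268, plus strand). AC093157.1 had 4.03, 4.21, 3.41, 3.49 and 3.77 CPM in OE replicates 1 to 5, against 5.54, 5.00, 5.13, 5.68 and 5.54 CPM in EV replicates 1 to 5. No OE library reached the lowest EV library, in either set. The log2 change was -0.51 (SE 0.14, unadjusted p = 0.0028, adjusted p = 0.853). DPH5 averaged a log2 change of -0.19 (unadjusted p = 0.0649), and the ratio of AC093157.1 to DPH5 changed by -0.32 (SE 0.20, unadjusted p = 0.119 by limma). AC093157.1 and ARRDC1-AS1 were the 2 members whose 5 OE and 5 EV libraries did not overlap, 0.962% of the members, against 0.558% of all genes tested.

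ARRDC1-AS1 stood on the other side, with 27.6, 28.3, 29.5, 29.1 and 28.4 CPM in OE replicates 1 to 5, against 24.0, 27.3, 25.6, 23.2 and 27.4 CPM in EV replicates 1 to 5. The lowest OE and the highest EV library differed by little, and the log2 change was 0.16 (SE 0.08, unadjusted p = 0.0604). GABPB1-AS1, head to head with the gene of a GA-binding protein subunit, had 10.001, 10.9, 9.37, 12.8 and 13.4 CPM in OE replicates 1 to 5, against 12.6, 11.9, 15.4, 14.8 and 14.02 CPM in EV replicates 1 to 5. Every OE library was below every EV library within its set (log2 change -0.29, SE 0.11, unadjusted p = 0.0186). Counting also HCG18, 5 members were separated in both sets in the same direction, 1 higher and 4 lower in OE, which is 2.40% of the members, against 2.22% of all genes tested.

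AL606489.1 had the largest estimate. This 486-base RNA runs tail to tail with PIK3C2B, a class II phosphoinositide 3-kinase gene. It had 3.86, 4.27, 2.73, 1.42 and 2.73 CPM in OE replicates 1 to 5, against 1.41, 0.898, 1.89, 0.909 and 2.10 CPM in EV replicates 1 to 5. The first-set OE libraries lay above every EV library, and OE replicate 4 lay among the EV libraries. The log2 change was 1.02 (SE 0.31, 95% interval 0.35 to 1.69, unadjusted p = 0.00576, adjusted p = 0.853).

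FAM201A, head to head with ANKRD18A, had 4.38, 3.94, 4.15, 7.87 and 6.27 CPM in OE replicates 1 to 5, against 1.98, 2.89, 2.32, 6.37 and 6.37 CPM in EV replicates 1 to 5. OE was above EV in the first set, and the groups overlapped in the second. The log2 change was 0.51 (SE 0.17, unadjusted p = 0.0114). SH3BP5-AS1, tail to tail with the Rab11 exchange factor gene SH3BP5, averaged 2.82 ± 0.452 CPM in OE and 1.92 ± 0.376 CPM in EV (log2 change 0.55, SE 0.22). PRR34-AS1 averaged 2.97 ± 1.05 CPM in OE and 1.84 ± 0.923 CPM in EV (0.73, SE 0.29), and AC016065.1 averaged 3.71 ± 0.581 CPM in OE and 2.82 ± 0.786 CPM in EV (0.42, SE 0.21). Lower in OE without passing the test were SREBF2-AS1, beside the sterol regulator gene SREBF2, with a log2 change of -0.30 (SE 0.14), SDCBP2-AS1 with -0.53 (SE 0.25) and AC090198.1 with -0.49 (SE 0.24).

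**Figure D3:**
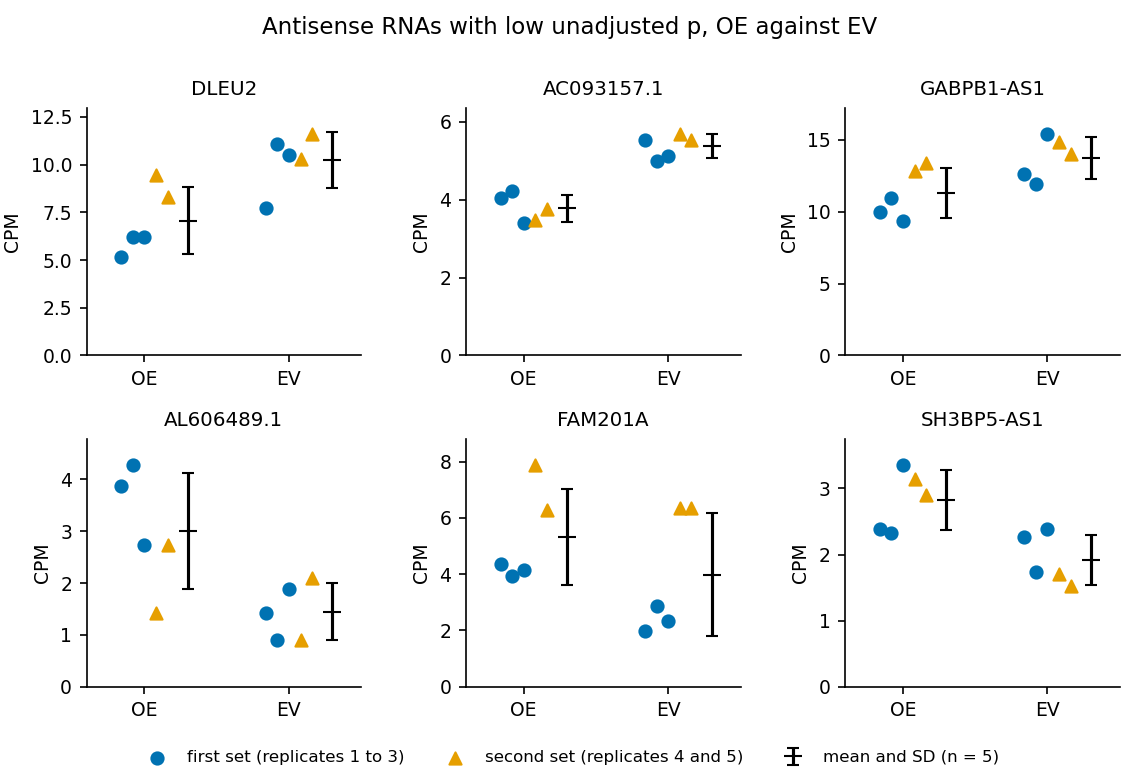
CPM of 6 antisense RNAs in each library (vertical axes, CPM, starting at 0), OE left and EV right; circles are the first set, triangles the second, and bars the mean and SD of 5 libraries. The 5 OE libraries of AC093157.1 (3.41 to 4.21) lie below its 5 EV libraries (5.00 to 5.68), while those of the other 5 RNAs overlap.

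Within the first set alone, 0 of 208 members were called by edgeR, against 5 of 14340 genes tested (0.0349%). At an unadjusted p under 0.05 there were 19 members, 4 higher and 15 lower in OE, or 9.13% of the members, against 8.84% of all genes tested. The median change was -0.04, against -0.01 over all genes tested. DESeq2 called 2 members, against 0.53% of all genes tested: OTUD6B-AS1 (log2 change -0.50, adjusted p = 0.0445) and AL606489.1 (1.37, adjusted p = 0.0368). Limma-voom called 0.

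EV replicate 2 decided this count. Without it, edgeR called 14 members in the first set, 2 higher and 12 lower in OE. That is a smaller share of the members than the 10.7% called over all 14769 genes tested. The 14 included OTUD6B-AS1 (log2 change -0.42, adjusted p = 0.00466), TM4SF19-AS1 (-0.42, adjusted p = 0.00702), DLEU2 (-0.63, adjusted p = 0.0279), THAP9-AS1 (-0.41, adjusted p = 0.0296), THUMPD3-AS1 (-0.41, adjusted p = 0.0382), GABPB1-AS1 (-0.46, adjusted p = 0.0477) and SDCBP2-AS1 (-0.97, adjusted p = 0.0187). FAM201A (0.96, adjusted p = 0.0206) and AL606489.1 (1.14, adjusted p = 0.0189) were higher. Leaving out any other library of the first set gave 0 members.

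In the second set 0 members were called by edgeR, DESeq2 or limma-voom, against 0 of all 14419 genes tested by edgeR (0%). At an unadjusted p under 0.05 there were 3 members, or 1.44%, against 1.1% of all genes tested. With 2 libraries a group, the 95% interval lay within 2-fold for 52.9% of the members, against 70.7% in the first set. Over all genes tested, these shares were 77.6% in the second set and 82.3% in the first.

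The difference of the OE effect between the sets was tested by an interaction term, which called 0 members, against 0.00672% of all genes tested, and 0 by DESeq2 or limma-voom. At an unadjusted p under 0.05 there were 10 members, 8 with the higher change in the second set and 2 with the lower, 4.81% of the members, against 3.55% of all genes tested. THUMPD3-AS1, a long antisense RNA that contains THUMPD3, had 13.1, 14.8 and 13.9 CPM in first-set OE libraries, against 18.7, 23.2 and 18.5 CPM in first-set EV libraries. In the second set it had 18.8 and 20.1 CPM in OE, against 14.6 and 17.97 CPM in EV. OE was thus below EV in each comparison of the first set and above EV in the second. The interaction was 0.79 on the log2 scale (unadjusted p = 0.00256) and did not pass the adjustment. For THAP9-AS1, whose groups were apart in the first set and overlapped in the second, it was 0.69 (unadjusted p = 0.0172).

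The members together took 0.123%, 0.127% and 0.125% of the counts in OE replicates 1 to 3, against 0.130%, 0.130% and 0.136% in EV replicates 1 to 3. In the second set they took 0.122% and 0.131% in OE, against 0.128% and 0.127% in EV. The groups were apart in the first set and overlapped in the second. Other shares moved with this one in the first set: lincRNAs took 0.256% to 0.268% in OE, against 0.293% to 0.319% in EV, and mitochondrially encoded genes 4.29% to 4.50% in OE, against 4.66% to 5.08% in EV. Their part in the result was not tested.

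A ratio within the pair asks whether a member moved apart from its partner. Over both sets, limma on the log2 ratio called 0 of 152 member pairs for OE against EV, against 0 of all 508 pairs tested (0%), and 10 member pairs had an unadjusted p under 0.05, which is 6.58% of them, against 6.69% of all pairs tested. The lowest were FAM201A over ANKRD18A (log2 change of the ratio 0.76, SE 0.24, unadjusted p = 0.00259), ZSCAN16-AS1 over ZSCAN16 (1.10, SE 0.36), DLEU2 over TRIM13 (-0.53, SE 0.18), AL391988.1 over SLC18A2 (0.84, SE 0.30) and AC016065.1 over MCPH1 (0.60, SE 0.23). None of them passed the adjustment (lowest adjusted p = 0.637). The changes of member and partner had a Pearson correlation of 0.13 over the 152 pairs, which share libraries. Of the 150 different partners, 0 were called for OE against EV, with a median log2 change of -0.02.

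The sets themselves differed more than OE and EV. In the second set against the first, edgeR called 7 members higher, against 8.63% of all genes tested, and 17 lower, against 9.13%. These 24 are 11.5% of the members. The median standard error of this log2 change was 0.22 over the members, against 0.12 over all genes tested. The median change was 0.02 over the members and -0.01 over all genes tested. What differs between the sets (culture, day or sequencing run) is unknown here and cannot be told apart. The libraries of the sets did not overlap for 17 members, 8.17%, against 16.2% of all genes tested, and 15 of these 17 were among the 24 called.

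FAM201A was among the 7 members higher in the second set. Its 4 second-set libraries had 6.27 to 7.87 CPM, against 1.98 to 4.38 CPM in the 6 first-set libraries (log2 change 1.08, SE 0.17, adjusted p = 0.00104). CTBP1-AS, tail to tail with the transcriptional corepressor gene CTBP1, averaged 2.83 ± 0.514 CPM in the second set (n = 4) and 1.10 ± 0.320 CPM in the first (n = 6). Its log2 change was 1.36 (SE 0.27, adjusted p = 0.0038). TMPO-AS1, whose promoter window is printed above, had 8.29, 11.3, 11.3 and 11.2 CPM in OE replicates 4 and 5 and EV replicates 4 and 5, against 5.43 to 8.21 CPM in the 6 first-set libraries. The lowest of its second-set libraries lay just above the highest of the first set (log2 change 0.59, SE 0.15, adjusted p = 0.0136).

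Also higher in the second set were AL031714.1 (log2 change 0.83), AC022211.2 (1.16), AC019205.1 inside KHDC1 (0.62) and SLC16A1-AS1 beside the lactate transporter gene SLC16A1 (0.46). SLC16A1 itself had a log2 change of 0.02 and was not called.

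The larger group was lower in the second set. AL445524.1, which overlaps no protein-coding gene, had 3.97, 2.44, 3.18 and 3.06 CPM in OE replicates 4 and 5 and EV replicates 4 and 5, against 6.02 to 9.81 CPM in the first-set libraries (log2 change -1.24, SE 0.18, adjusted p = 0.000627). NRAV, known as a negative regulator of the antiviral response, lies inside the dynein light chain gene DYNLL1. NRAV had 12.1, 13.1, 12.1 and 10.96 CPM in those 4 second-set libraries, against 17.1 to 23.7 CPM in the first-set libraries. The sets were far apart for NRAV, and its log2 change was -0.75 (SE 0.11, adjusted p = 0.000572). DYNLL1 changed in the same direction (-0.35, SE 0.11, adjusted p = 0.0317).

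AC090673.1 lies inside HMGA2, the gene of an architectural chromatin protein. It averaged 1.54 ± 0.387 CPM in the second set and 3.99 ± 1.73 CPM in the first (log2 change -1.34, SE 0.29, adjusted p = 0.00625). HMGA2 had a smaller change of -0.33 (adjusted p = 0.00375). DLGAP1-AS1 and DLGAP1-AS2, which both lie inside DLGAP1, had log2 changes of -1.07 (SE 0.21) and -0.80 (SE 0.20). ZMIZ1-AS1 averaged 4.76 ± 1.59 CPM in the second set and 8.50 ± 0.658 CPM in the first (-0.85, SE 0.18). AC009779.2, head to head with the tetraspanin gene CD63, changed by -0.86 (SE 0.24), and AL035587.1, the scarcest member, by -1.65 (SE 0.42). Among the 52 members that share no exon base with another gene, 10 were called and all 10 fell, against 9.13% of all genes tested called lower and 8.63% called higher. This subset was chosen after seeing the data, and its direction was not tested. These 10 include the 6 called members without a protein-coding partner.

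**Figure D4:**
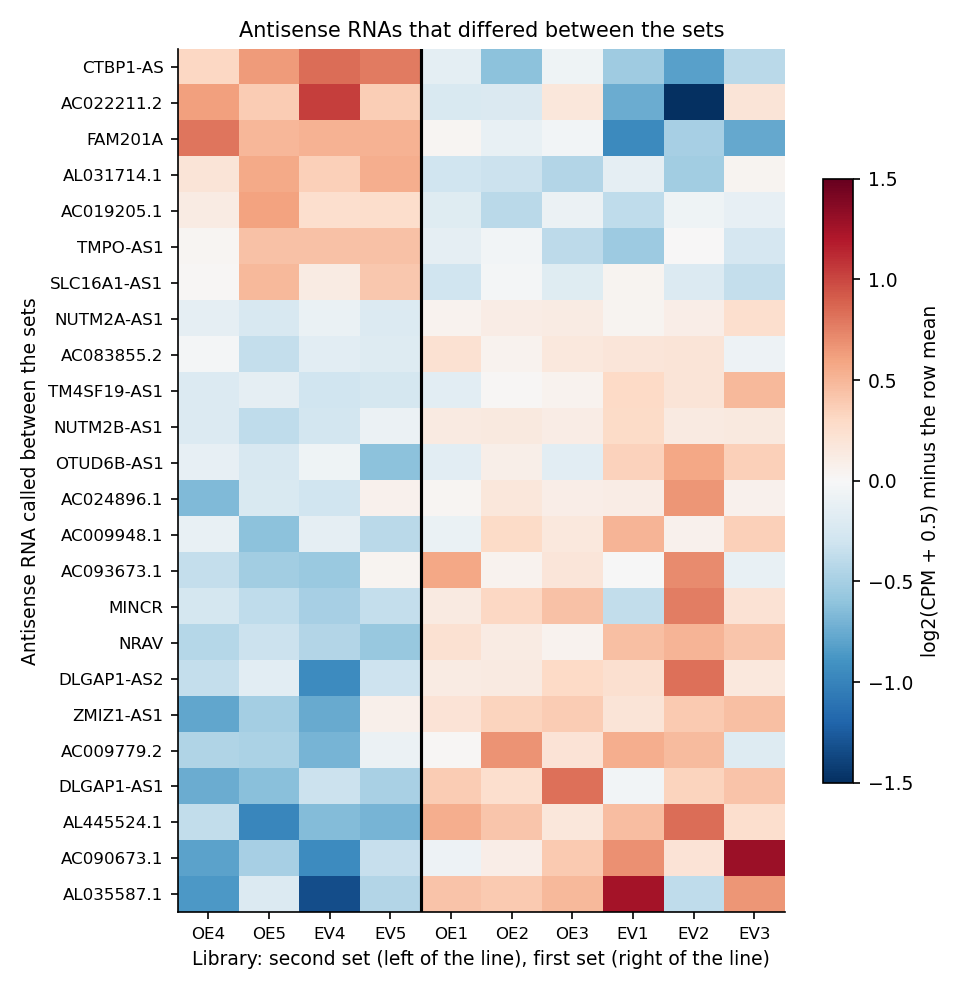
Heat map of the 24 antisense RNAs called between the sets, as log2(CPM + 0.5) minus the mean of the row (colour); columns are libraries, with the second set left of the line and the first set right of it, and rows are ordered by log2 change from 1.36 for CTBP1-AS to -1.65 for AL035587.1. The 7 upper rows are higher and the 17 lower rows lower in the second set.

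The call of single members varied in firmness. Of the 24, 9 were called under each of 14 alternative fits, which left out a library in turn, changed the scaling or filter, or used DESeq2 or limma-voom: AC090673.1, FAM201A, AL445524.1, NRAV, NUTM2B-AS1, CTBP1-AS, AL031714.1, ZMIZ1-AS1 and DLGAP1-AS1. AC083855.2 was called in 2 of them, AC019205.1 in 4, AC093673.1 in 6, AC022211.2 and MINCR in 7 each, and SLC16A1-AS1 and OTUD6B-AS1 in 8 each. The count of called members was 11 without EV replicate 4, 15 without EV replicate 5 and 29 without EV replicate 2.

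Antisense RNA and partner were compared between the sets as well. Their log2 changes had the same sign in 93 of 152 pairs. Of the 150 different partners tested, 32 were called, 16 higher and 16 lower (21.3%). Among the 152 pairs, 14 members were called, and the partner was called as well in 5, in the same direction each time: AC090673.1 and HMGA2, NRAV and DYNLL1, CTBP1-AS and CTBP1, AC024896.1 and TM7SF3, and AC083855.2 and HRH1. In the other 9 the partner was not called. AC090673.1, NRAV and AC083855.2 lie wholly inside their partners. Without strand, their reads cannot be told apart from unspliced RNA of the partner's introns, as stated above. The 2 changes had a Pearson correlation of 0.27 over the 152 pairs, 0.26 over head to head pairs, 0.15 over tail to tail pairs, 0.40 for members inside their partner and 0.37 for members around it, as a description of genes measured in shared libraries.

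The ratio of member to partner differed between the sets in 9 member pairs. In 4 the ratio was higher in the second set, against 1.57% of all pairs tested, and in 5 it was lower, against 0.984%. Together these 9 are 5.92% of the 152 member pairs. The 508 pairs tested include the member pairs, and the 5 called lower among them were all member pairs. The lowest p was that of KCCAT198 over C12orf75. KCCAT198 had 11.5, 15.0, 13.5 and 18.9 CPM in OE replicates 4 and 5 and EV replicates 4 and 5, against 11.2 to 13.7 CPM in the first-set libraries, while C12orf75 had 289 to 318 CPM in the second set, against 386 to 493 CPM in the first. The KCCAT198 values of the sets overlapped and those of C12orf75 did not. The ratio rose by 0.70 on the log2 scale (SE 0.16, adjusted p = 0.0195 by limma). KCCAT198 shares 15.0% of its 31-base words with ZNF493, and 30.1% in all with genes that do not overlap it.

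Higher ratios were also those of CTBP1-AS over CTBP1 (1.09, SE 0.29) and FAM201A over ANKRD18A (0.88, SE 0.24). Lower were FLG-AS1 over the filaggrin gene FLG (-0.81, SE 0.20, adjusted p = 0.0230), AC009948.1 over PRKRA, the gene of a protein kinase R activator (-0.69, SE 0.17, adjusted p = 0.0230), AC090673.1 over HMGA2 (-0.92, SE 0.26), and AC027097.1 and AC027097.2, both over the phospholipid flippase gene ATP8B1 (-0.93, SE 0.24, and -1.10, SE 0.29). Those last pairs share a partner, which rose in the second set by 0.44 (adjusted p = 0.0223). FLG had 18.3 CPM in EV replicate 2, against 33.99 to 54.1 CPM in the other first-set libraries. The number of called pairs rested on single libraries: it was 0 when OE replicate 2 or EV replicate 5 was left out. It was 2 with OE replicate 4 omitted, 3 with EV replicate 4 omitted, 4 with OE replicate 3 omitted and 16 with EV replicate 2 omitted.

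**Figure D5:**
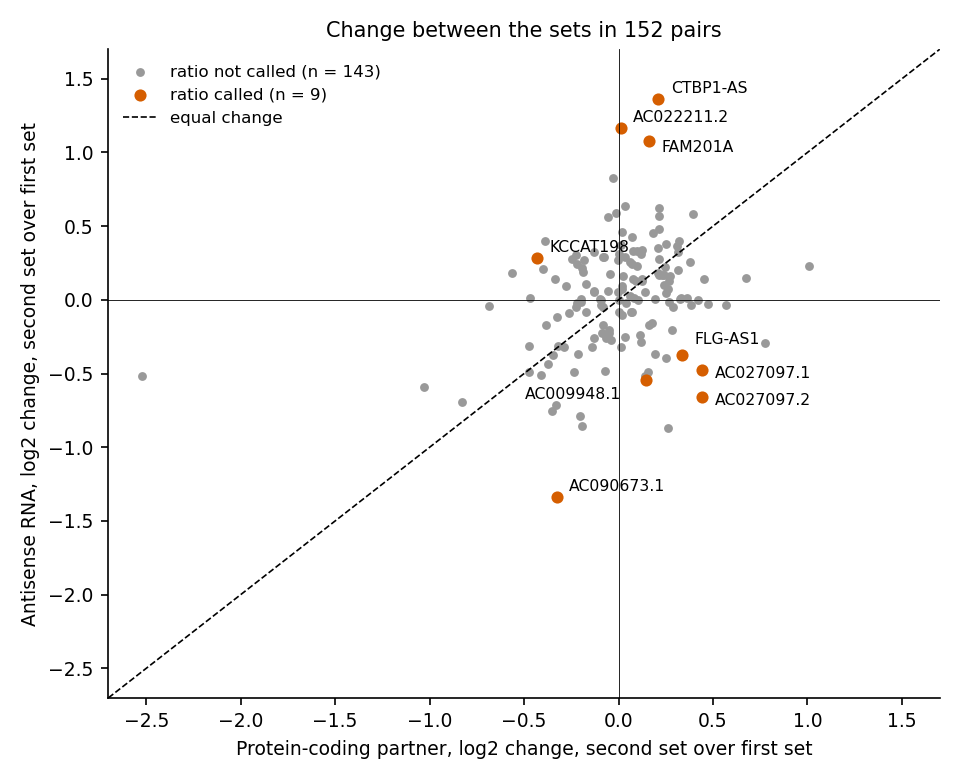
Log2 change, second set over first set, of each antisense RNA (vertical axis) against that of its protein-coding partner (horizontal axis) for 152 pairs; the dashed line marks equal change. The 9 coloured pairs had a called change of the ratio, from KCCAT198 and CTBP1-AS above the line to AC027097.2 and AC090673.1 below it.

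A list of 60 RNAs with antisense names or published antisense roles was followed as well. Of these, 57 are in the tables, 39 are typed as antisense there, and 18 are members. In OE against EV, 0 of the 18 were called, with 4 above and 14 below 0 and a median log2 change of -0.08, against -0.01 over all genes tested. Below 0 were 58.2% of all members and 52.2% of all genes tested. CDKN2B-AS1, also called ANRIL, which spans the tumour suppressor gene CDKN2B, had 1.48, 1.22, 2.44, 1.89 and 1.68 CPM in OE replicates 1 to 5, against 2.04, 2.56, 2.51, 1.88 and 2.42 CPM in EV replicates 1 to 5. Its groups overlapped (log2 change -0.38, SE 0.24). ZEB1-AS1, beside the gene of the mesenchymal transcription factor ZEB1, changed by -0.17 (SE 0.17), TRAF3IP2-AS1 by -0.28 (SE 0.23), NNT-AS1 by 0.14 (SE 0.10) and LOXL1-AS1 by 0.02 (SE 0.14). Between the sets, 1 of the 18 was called higher (TMPO-AS1) and 1 lower (OTUD6B-AS1, log2 change -0.43, adjusted p = 0.0443), against 8.63% and 9.13% of all genes tested. The OTUD6B-AS1 call held in 8 of 14 alternative fits. By the values given above, its OE libraries overlapped between the sets, while its first-set EV libraries all lay above its second-set EV libraries.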

How the data were processed

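The authors deposited 2 tables of raw counts per gene, and the values are whole numbers. The submitters' processing notes name hg38 as the build, featureCounts 1.5.0-p3, HISAT2 2.0.5, fastp, CASAVA 1.8 and DESeq2 1.20.0, without settings or order. Library preparation per the labels' protocols began from total RNA treated with DNase I. The 14 deposited per-library columns of other units were not used.

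Counts were joined by gene identifier (GENCODE 29 holds all 58735 genes, 58724 with the same span). Partners came from gene spans, exon overlaps and 31-base words from GENCODE 29 and its transcripts. With edgeR 4.0.16 in R 4.3.3, genes passing filterByExpr were fitted by quasi-likelihood with TMM scaling and the set as a term, p-values were adjusted over all genes tested (Benjamini-Hochberg), and a gene was called at an adjusted p under 0.05. CPM values carry TMM factors, and SE is the standard error implied by the test. Each set was also fitted alone, and an interaction term compared them. Ratios used limma 3.58.1 on log2 CPM (prior count 2) over 508 pairs of antisense genes and partners. Tables used Python 3.11.15. DESeq2 1.42.0, limma-voom, other scaling and filters, the replicate number as a block and leaving out each library were alternatives.

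The fits were tested on simulated data: of genes changed 2-fold, 89% were found over both sets (14613 genes), 88% in the first set (14300 genes) and 68% in the second (14291 genes). Of genes changed 1.5-fold, 74% were found over both sets, 41% in the first set and 17% in the second. The changed genes were drawn from all genes averaging at least 30 counts, and no set difference or outlying library was simulated. These rates are therefore not rates for the members, whose median standard error was larger than that of all genes tested. The lowest chi-square per degree of freedom between libraries of one group was 4.47, so none was counted as a duplicate.

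The members and lists were chosen with earlier results of these data known. Named were the 12 members of highest CPM, 6 in each direction of lowest p for OE against EV, 6 called in each direction of largest change between the sets, 5 pairs of lowest p in each ratio test, 4 highest and 4 lowest relative to their partner, HOX cluster members and genes next to the minimum count. All 208 members passed the filter. Results on a few genes are not reported here.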

Additional observations from a re-analysis of the deposited data

Results flagged for a closer look

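Among the 50 named members, the 5 libraries of each group were checked for a value far from the others, and 5 of 100 groups had one; chance flags about 1 in 20. AC099850.3 had 24.4 CPM in OE replicate 5, against 14.6 to 17.2 CPM in the other OE libraries. AC027097.1 had 2.31 CPM in OE replicate 4, against 4.10 to 4.64 CPM in the other OE libraries, and 7.18 CPM in EV replicate 2, against 3.06 to 4.02 CPM in the other EV libraries. EV replicate 2 was also highest for AL391988.1, at 4.10 CPM against 1.53 to 2.27 CPM in the other EV libraries, and for ZSCAN16-AS1, at 3.27 CPM against 1.13 to 1.53 CPM in the other EV libraries.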

How the results depend on the processing

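The count of members called for OE against EV stayed at 0 over both sets, in the second set alone and in the interaction under each alternative run, and so did that of called ratios. In the first set it was 2 with no filter on low counts, 2 by DESeq2, and 0 to 14 when a library was left out in turn. Between the sets the 24 called members became 12 among members with a mean count of at least 100, 10 among members with no exon base in another gene (an alternative chosen after seeing the data), and 11 to 29 with a library left out; the first 2 of these count fewer members by construction. The 9 called ratio pairs became 0 to 16 with a library left out. With the replicate block the paired fit gave 0 members over both sets, 0 in the first, 0 in the second and 0 in the interaction, and 0 ratio pairs; over all genes it called 71 in the second set, against 0 without it, 1 in the first, against 5, and 3 in the interaction, against 1. The series' design text speaks of 5 pairs without saying what joins a pair. Deviations of same-numbered OE and EV libraries from the mean of their group and set had correlations of -0.094, 0.0076, 0.150, 0.282 and 0.282 for replicates 1 to 5. Those of replicates 4 and 5 are 1 value by construction, because the deviations of 2 libraries from their mean mirror each other. OE replicate 3, and OE replicates 4 and 5 as 1 outcome, correlated best with their own number. OE replicates 1 and 2 did not, so the numbers were not used as pairs. Over all genes, no filter gave 23 calls over both sets and DESeq2 7, against 0; in the first set they gave 90 and 76, and 1578 came without EV replicate 2, against 5. DESeq2 called 9 and no filter 28 in the interaction, and 7 came without EV replicate 2, against 1. Where leaving out a library ended a call the cause was not tested. No log2 change recomputed under the alternatives reversed, but 25 recomputed set changes of single members and 20 of single ratios lost their call; the mean CPM of the 12 members of highest CPM moved by less than 1 SD under DESeq2 size factors. Low counts limit the precision of most members.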
